A study of Mus musculus with 16 samples.

Results

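The genes described here encode the machinery that places the histone variant H2A.Z into chromatin, and H2A.Z itself. They are 10 of the 49585 genes listed for 2-cell mouse embryos: Actr6, Srcap, Znhit1, Vps72, Yeats4, Dmap1, Ep400, Anp32e, H2afz and H2afv. They were found by gene symbol, and all 10 were matched to 1 identifier each and carried an adjusted p in all 3 comparisons. The set was chosen by function around Actr6, which was picked because its transcript was lower after knockdown of Suv39h2, the gene of a histone H3 lysine 9 methyltransferase. For that reason the contrast of knockdown and LacZ control is given below as a description and supports nothing.

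Zygotes had received double-stranded RNA matching Suv39h2 (knockdown, 6 libraries), double-stranded RNA matching the bacterial gene LacZ, which mice lack (LacZ control, 6 libraries), or no injection (non-injected, 4 libraries). In all 3 groups the father was a DBA mouse and the mother an F1 hybrid of C57BL/6J and CBA/H, culture was in KSOM medium, and libraries of polyadenylated RNA were made by Smart-seq2, which covers whole transcripts and keeps no strand information. By the design text a library pools 5 embryos, but the labels' extraction protocol speaks of 1. Suv39h1 mRNA appears in the labels' treatment protocol, although no group is otherwise labelled as having received it. Double-stranded RNA lowers a transcript without removing its gene, and nothing in the labels says whether libraries of a group came from separate injections, so p-values measure only the spread between these libraries. In such pools, a transcript lost from some embryos cannot be told apart from less transcript in each.

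H2A.Z replaces the ordinary histone H2A in nucleosomes at the start sites of active and poised genes, at regulatory elements and in heterochromatin around centromeres. Remodelling complexes exchange an H2A-H2B dimer for an H2A.Z-H2B dimer at the cost of ATP. In mammals these are the SRCAP complex and the larger TIP60-EP400 complex, which also acetylates histones. In the mouse H2A.Z is made from a pair of genes, H2afz and H2afv, and H2afz is required for development beyond implantation.

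H2afz and H2afv are shown first, because reads of these near-identical histones must be kept apart for their values to be read. Their proteins differ at 3 of 128 amino acids, whereas their coding sequences differ at 81 of 387 bases (79.1% identity). The first 90 coding bases of each, from the GENCODE vM21 transcripts, are printed with the differing bases in capitals.
H2afz: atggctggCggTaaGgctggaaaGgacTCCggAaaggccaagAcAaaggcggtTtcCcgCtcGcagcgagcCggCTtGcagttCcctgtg
H2afv: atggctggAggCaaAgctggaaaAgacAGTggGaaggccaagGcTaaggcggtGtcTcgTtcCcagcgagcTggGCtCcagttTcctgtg
In these 90 bases 19 differ, and the longest run of identical bases in the whole coding sequence is 14, so reads longer than that within the coding sequence separate the genes. Other copies do not separate as well. The whole coding sequence of H2afz occurs without a mismatch in a transcript of Tmcc1, whose mean count was 499.9, and in the processed pseudogene Gm8203, with a mean count of 68.9. In all, 4 other annotated genes held at least 100 bases of H2afz coding sequence at 95% identity or more, so the values of H2afz are uncertain to that extent. No such copy was found for Actr6, Znhit1, Vps72, Yeats4, Dmap1, Anp32e or H2afv, and for Ep400 it was 1 pseudogene at a low mean count. Srcap shared 61.7% of its exon length with Gm42715 on the same strand and 3.31% with the antisense gene 1700008J07Rik, and Znhit1 shared 28.4% with Plod3 on the opposite strand. The values of Srcap and Znhit1 are uncertain for that reason, whereas the exons of Actr6, Yeats4, Vps72, Dmap1, Anp32e, H2afz and H2afv overlapped no other annotated exon.

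The promoters of Actr6, Yeats4 and Anp32e are shown because these members passed the threshold between knockdown and non-injected embryos. Each runs from 250 bases before to 50 bases after the start (RefSeq, GRCm38.p6), at chr10:89732246-89732545 on the minus strand for Actr6, chr10:117224458-117224757 on the minus strand for Yeats4 and chr3:95929007-95929306 on the plus strand for Anp32e. Capitals mark matches, on either strand, to the TATA box (TATAAA), the box bound by NF-Y (CCAAT), the GC box (GGGCGG), a core bound by ETS factors (CCGGAAG), the start of the site of NRF1 (GCGCATG) and the E-box (CACGTG). Matches to different motifs do not overlap in these 3 promoters.
Actr6: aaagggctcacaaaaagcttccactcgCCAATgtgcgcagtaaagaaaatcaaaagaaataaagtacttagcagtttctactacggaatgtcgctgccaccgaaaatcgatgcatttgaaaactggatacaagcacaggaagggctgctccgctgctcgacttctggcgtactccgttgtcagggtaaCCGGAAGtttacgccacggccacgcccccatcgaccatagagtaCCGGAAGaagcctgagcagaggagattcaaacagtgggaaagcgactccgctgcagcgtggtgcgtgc
Yeats4: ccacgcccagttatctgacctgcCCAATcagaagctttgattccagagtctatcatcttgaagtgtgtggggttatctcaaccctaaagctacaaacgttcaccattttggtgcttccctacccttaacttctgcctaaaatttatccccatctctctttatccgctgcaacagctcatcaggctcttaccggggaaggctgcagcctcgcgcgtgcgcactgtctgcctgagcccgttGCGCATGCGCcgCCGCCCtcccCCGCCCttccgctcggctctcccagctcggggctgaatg
Anp32e: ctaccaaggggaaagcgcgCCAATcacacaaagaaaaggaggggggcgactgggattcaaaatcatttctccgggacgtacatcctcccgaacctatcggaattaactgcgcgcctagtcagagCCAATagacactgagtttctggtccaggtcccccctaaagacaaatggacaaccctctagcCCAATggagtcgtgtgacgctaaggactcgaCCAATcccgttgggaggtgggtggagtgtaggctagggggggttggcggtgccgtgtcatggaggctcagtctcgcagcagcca
The Actr6 promoter held 2 matches to CCGGAAG and 1 to CCAAT, that of Yeats4 held 2 to GCGCATG, which overlap on opposite strands, 2 to GGGCGG and 1 to CCAAT, and that of Anp32e held 4 to CCAAT. Of 27025 promoters of the same length, 1.52% held CCGGAAG at least 2 times, 1.24% held GCGCATG at least 2 times, 19.6% held GGGCGG at least 2 times and 1.14% held CCAAT at least 4 times. At least 1 match was present in 38.0% for CCAAT, 9.14% for CCGGAAG, 14.2% for TATAAA and 7.24% for CACGTG. No motif was common to all 9 members with a promoter sequence: CCAAT matched in 5 (Actr6, Yeats4, Anp32e, H2afz and H2afv), and TATAAA in 0. Dmap1 also held 2 matches to CCGGAAG. The CpG dinucleotides numbered 20 in Actr6, 17 in Yeats4 and 16 in Anp32e, beside a median of 7 over all promoters. Matches are descriptions of these letters only.

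RNA of all 10 genes was counted at the 2-cell stage, over a wide range of levels. The level is the mean normalized count over all libraries in the authors' deposited tables, divided here by the kilobases of merged exons, so that genes of different length can be compared. The H2A.Z genes led, with H2afz at 3778 and H2afv at 1065 counts per kilobase, the 99.9th and 99.2nd percentile of the 32861 genes with a count. H2afz thus stood 3.55 times above H2afv, or 5.89 times with the length of the longest transcript in place of merged exons. Yeats4, the subunit whose YEATS domain binds acetylated lysine in the human protein, came next at 878 counts per kilobase (99.0th percentile), and Anp32e, the chaperone that takes H2A.Z out of nucleosomes, at 305 (96.0th percentile). The remaining members were less abundant, and before division by length the mean counts of all 10 ran from 38.1 (Dmap1) to 6710 (H2afz). Actr6, an actin-related protein of the SRCAP complex, stood at 110 counts per kilobase, Vps72, the subunit (YL1) that binds the H2A.Z-H2B dimer, at 70.1, and the ATPase Ep400 at 60.2. Znhit1, a zinc finger subunit that the SRCAP complex needs for the exchange, stood at 26.7, the ATPase Srcap at 17.1 and Dmap1, a subunit shared by both complexes, at 14.5 counts per kilobase. The median gene with a count stood at 3.38 per kilobase, below each of the 10. With the length of the longest transcript in place of merged exons the order of the 10 was the same. The tables give no spread over libraries for a level, so whether neighbours in this order differ beyond it cannot be said.

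**Figure D1:**
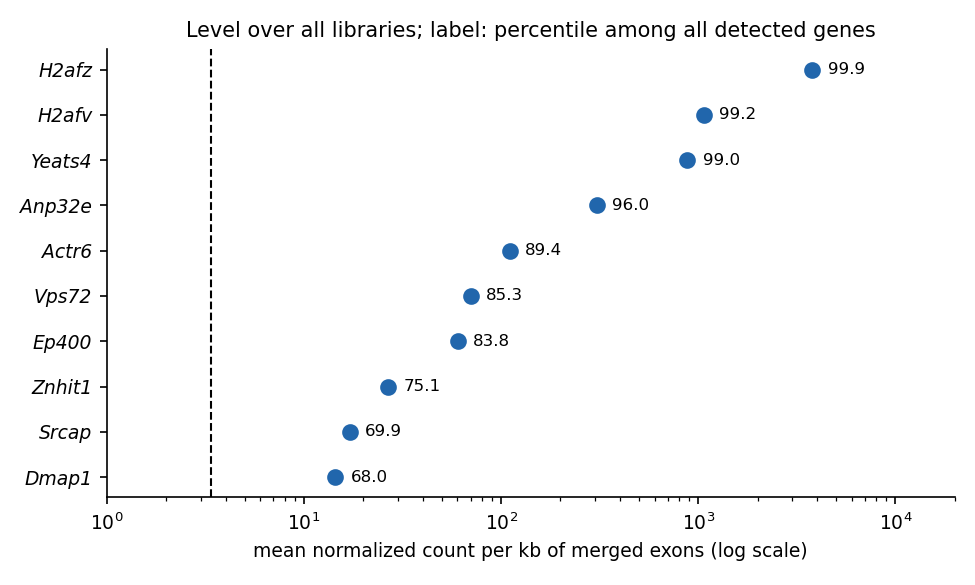
Mean normalized count per kilobase of merged exons for the 10 genes, over all libraries of all 3 groups, on a log axis, with the percentile among genes with a count beside each point. The dashed line marks the median gene at 3.38 counts per kilobase, and the genes run from H2afz at 3778 down to Dmap1 at 14.5.

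The whole series is covered in brief. The targeted transcript Suv39h2 stood at -1.95 ± 0.28 (log2 fold change ± standard error) in knockdown over LacZ control and at -1.79 ± 0.29 in knockdown over non-injected embryos in the authors' deposited tables. Suv39h2 shared 8.10% of its exon length with Dclre1c on the opposite strand. In the same order Dclre1c stood at -0.97 ± 0.34 and -1.17 ± 0.35 (DESeq2, adjusted p = 0.127 and 0.0142). The part of this overlap in the values of either gene was not tested. The tissue label was checked against marker genes by their mean count over all libraries. The 12 markers of the 2-cell stage, such as Zscan4c and Zfp352, had mean counts of 114 to 2987, and the 7 oocyte genes of 205 to 8077. The 9 markers of cumulus and granulosa cells ranged from 0 (Lhcgr) to 36.5 (Tnfaip6), with a median of 0.667, and the 5 sperm transcripts from 0.252 to 7.78. No value of a single library was used (0 such columns), so the depth of each library is unknown.

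Between knockdown and LacZ control embryos, both injected, Actr6 had the lowest log2 fold change of the 10 members. It stood at -1.27 ± 0.30 (log2 fold change ± standard error) in the authors' deposited table, which is 2.41-fold lower in knockdown. Actr6, a protein-coding gene on the minus strand of chromosome 10 (GRCm38, 89711971 to 89732295), had a mean count of 219 over all libraries. The other subunits of the exchange machinery were spread on both sides of 0. In the authors' deposited table, its partners in the SRCAP complex stood at -0.32 ± 0.28 (Srcap) and -0.38 ± 0.30 (Znhit1), and Gm42715, which shares exons with Srcap, at -0.10 ± 0.27. Among the subunits of both complexes, Vps72 stood at 0.71 ± 0.32, Yeats4 at 0.21 ± 0.19 and Dmap1 at -0.38 ± 0.34, and the ATPase Ep400 stood at 0.20 ± 0.25 in the authors' deposited table. Anp32e, the remover, stood at -0.27 ± 0.18 there. The H2A.Z genes lay side by side at -0.47 ± 0.21 (H2afz) and -0.57 ± 0.21 (H2afv) in the authors' deposited table, 1.39-fold and 1.49-fold lower in knockdown. Neither was called (DESeq2, adjusted p = 0.251 and 0.168). In all, 7 members were below 0 and 3 above it, with a median of -0.35 beside a median of 0.02 over all 15572 genes with an adjusted p and -0.03 over the 10587 genes within the members' range of mean count. By the deposited adjusted p, 1 of the 10 was called, the gene used to choose the set, where 0.899% of all genes were called, and nothing is read from that count. At an unadjusted p under 0.05 by DESeq2, 1 member was higher and 3 were lower, Actr6 among the lower, beside 14.7% of all genes in either direction. The higher member was Vps72 (DESeq2, unadjusted p = 0.0303). Beside Actr6, the lower members were H2afz and H2afv (DESeq2, unadjusted p = 0.0244 and 0.00962).

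**Figure D2:**
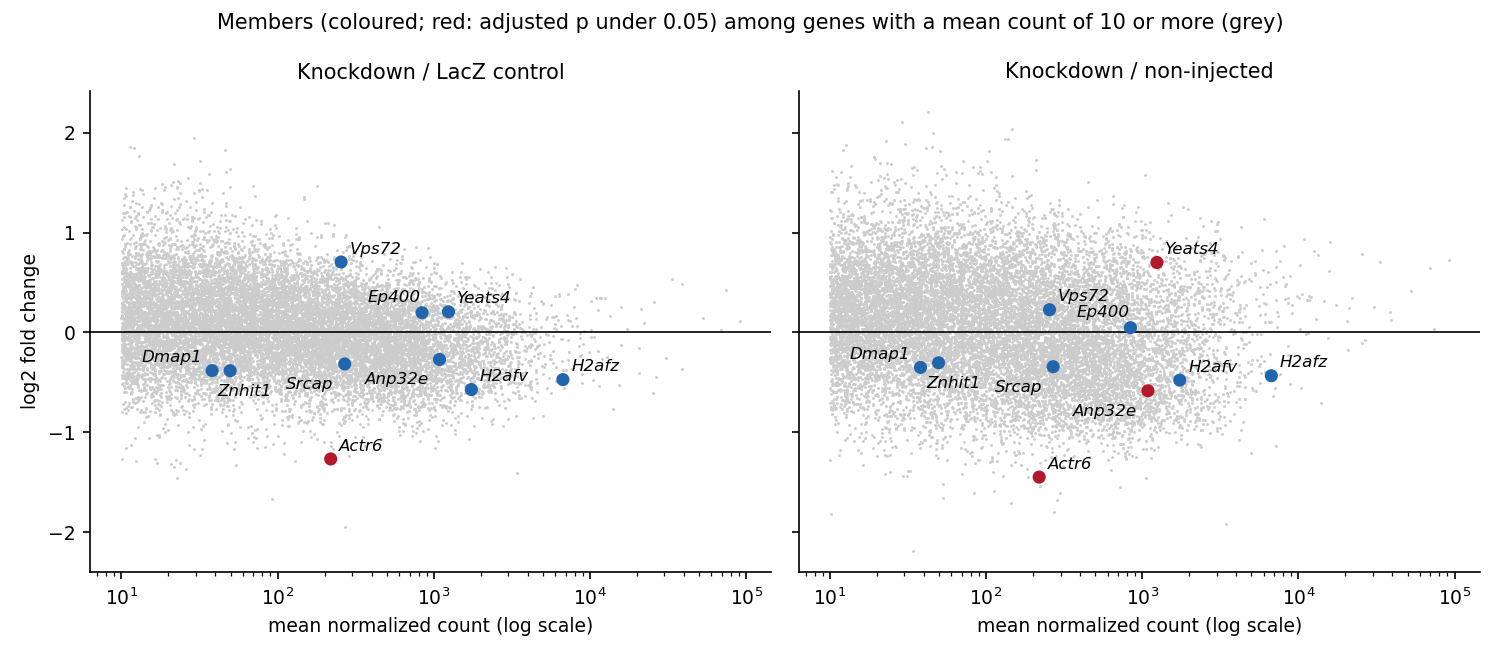
Log2 fold change in the authors' deposited tables against mean normalized count over all libraries (log axis) for the 10 members (coloured, red where the adjusted p is under 0.05) and for genes with a mean count of 10 or more (grey), in knockdown over LacZ control (left) and knockdown over non-injected (right). Actr6 lies at the lower edge of the grey cloud in both panels, at -1.27 and -1.45, and the other members lie within it.

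Between knockdown and non-injected embryos, which differ by injection as well as by the RNA injected, Actr6 and Anp32e fell and Yeats4 rose. This contrast shares the knockdown libraries with the one that picked Actr6, so the value of Actr6 is no independent result. Its log2 fold change was -1.45 ± 0.32 in the authors' deposited table, a 2.73-fold fall (DESeq2, adjusted p = 0.000653). Anp32e had a log2 fold change of -0.58 ± 0.19 in the authors' deposited table, and fell by 33.3% (DESeq2, adjusted p = 0.0248). It is a plus-strand gene of chromosome 3 (95929246 to 95947390). Yeats4 rose by 0.70 ± 0.20 in the authors' deposited table, a 1.63-fold difference (DESeq2, adjusted p = 0.00759). It sits on the minus strand of chromosome 10 (117215221 to 117224507), and was the most abundant subunit per kilobase.

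The other 7 members did not pass the threshold in this contrast. In the authors' deposited table Srcap stood at -0.34 ± 0.29 (adjusted p = 0.473), with Gm42715 at -0.36 ± 0.29, and Znhit1 at -0.30 ± 0.31 (adjusted p = 0.567) by DESeq2. Vps72 stood at 0.23 ± 0.34 (adjusted p = 0.716), Dmap1 at -0.35 ± 0.35 (adjusted p = 0.512) and Ep400 at 0.05 ± 0.26 (adjusted p = 0.932) in the authors' deposited table. The 95% interval of the log2 fold change ran from -0.46 to 0.56 for Ep400, which leaves room for a moderate difference in either direction. H2afz stood at -0.43 ± 0.22 and H2afv at -0.48 ± 0.22 in the authors' deposited table (DESeq2, adjusted p = 0.174 and 0.152). Their 95% intervals, from -0.86 to -0.01 for H2afz and from -0.92 to -0.04 for H2afv, were built around the shrunken fold change and are not adjusted for the number of genes. The deposited p of H2afz before adjustment, which does not come from these intervals, was 0.0510 by DESeq2, above the threshold, and that of H2afv was 0.0417. In all, 3 of 10 members were called, 1 higher and 2 lower. Of all 14948 genes 15.2% were called (7.41% higher and 7.76% lower), and 19.1% of those within the members' range of mean count. Actr6, the gene used to choose the set, is 1 of the 3 and among the lower, so nothing is read from that count. At an unadjusted p under 0.05 by DESeq2, 1 member was higher and 3 were lower, Actr6 among the lower, beside 29.0% of all genes in either direction. The median of the members was -0.35, beside 0.05 over all genes with an adjusted p and -0.02 over those within the members' range of mean count. Markers of the stage moved in this contrast too: of 12 markers of the 2-cell stage 6 were called higher and 1 lower, and of 7 oocyte genes 3 were called higher, with medians of 0.79 and 0.71. Between LacZ control and non-injected embryos these medians were 0.62 and 0.44, with 2 markers of the 2-cell stage called higher and 0 oocyte genes called. Between the injected groups they were -0.05 and 0.13, with 0 called in either list. Only 3 of the 9 cumulus and granulosa markers carried an adjusted p in knockdown over non-injected embryos and 0 of the 5 sperm transcripts did, each list with mean counts of 36.5 or less, so the others could not be called. Of those 3, Tnfaip6 stood at 0.72 ± 0.38, Cyp19a1 at 0.51 ± 0.40 and Star at -0.34 ± 0.40 in the authors' deposited table (DESeq2, adjusted p = 0.155, 0.355 and 0.562). The part of these markers in the values of the members was not tested.

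**Figure D3:**
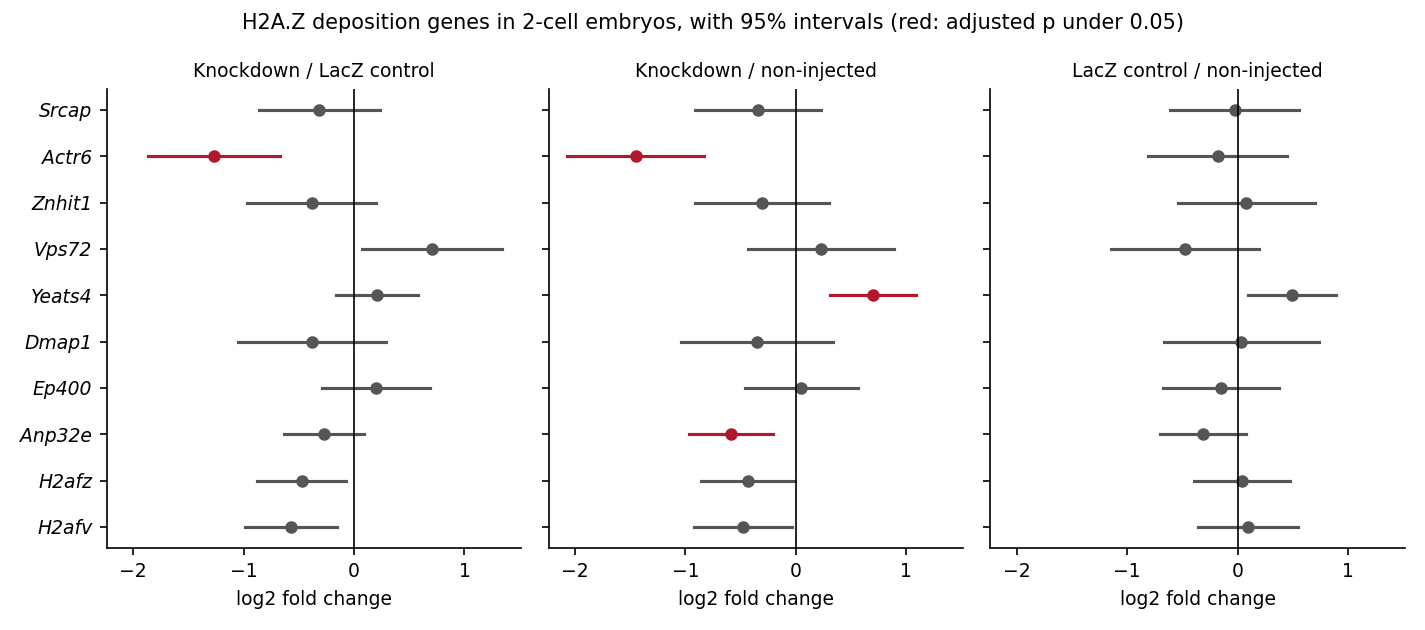
Log2 fold change of each member (points) with its 95% interval (bars, shrunken fold change with limits from the deposited standard error, not adjusted for the number of genes) in the authors' deposited tables for the 3 comparisons, red where the adjusted p is under 0.05. Actr6 is red in both knockdown comparisons, Yeats4 and Anp32e are red in knockdown over non-injected embryos, and no member is red in LacZ control over non-injected embryos.

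Between LacZ control and non-injected embryos, the comparison that holds injection and double-stranded RNA but no targeting of Suv39h2, no member was called. DESeq2 gave 0 of 10, where 0.792% of 29288 genes were called, and 1 of 10 at an unadjusted p under 0.05, which was Yeats4, beside 7.39% of all genes. No other tool could be run on these tables. Yeats4 stood at 0.49 ± 0.20 in the authors' deposited table (DESeq2, adjusted p = 0.426), Vps72 at -0.48 ± 0.34 (adjusted p = 0.938) and Anp32e at -0.31 ± 0.20 (adjusted p = 0.850). Actr6 stood at -0.18 ± 0.32 in the authors' deposited table (DESeq2, adjusted p = 0.998), with a 95% interval from -0.81 to 0.45. H2afz and H2afv stood at 0.04 ± 0.22 and 0.09 ± 0.23, and Srcap, Dmap1, Znhit1 and Ep400 at -0.03, 0.03, 0.08 and -0.15 in the authors' deposited table, each with an adjusted p of 0.998. The median of the members was 0.00, and 5 were above 0 and 5 below it.

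The 3 comparisons share their libraries pairwise and close on each other: for each member, adding the log2 fold changes of knockdown over LacZ control and LacZ control over non-injected gave that of knockdown over non-injected to within 3.89e-10. They are therefore set side by side as one account of each gene, and no difference between comparisons was tested. For Actr6, the -1.45 between knockdown and non-injected embryos was made up of -1.27 between the injected groups and -0.18 between LacZ control and non-injected embryos. Actr6 was picked for its fall between the injected groups, so nothing is read from this split. H2afz stood at -0.47 and 0.04 and H2afv at -0.57 and 0.09 in the same 2 steps, and neither was called in any comparison. For Yeats4 the larger share of its 0.70 lay between LacZ control and non-injected embryos (0.49 against 0.21 between the injected groups), and for Anp32e the 2 steps were close (-0.27 between the injected groups and -0.31 between LacZ control and non-injected embryos). Vps72 went opposite ways in the 2 steps, at 0.71 between the injected groups and -0.48 between LacZ control and non-injected embryos, which left 0.23 in sum. Of the other SRCAP-specific subunits, Znhit1 stood at -0.38 and Srcap at -0.32 between the injected groups. Neither was called there (DESeq2, adjusted p = 0.586 and 0.644), and both share exons with other genes.

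The 35 other genes of the pathway were counted in 5 groups. None of them passed the threshold between knockdown and LacZ control (0 of 33 with an adjusted p by DESeq2) or between LacZ control and non-injected embryos (0 of 35), whereas 6 of 32 did between knockdown and non-injected embryos, 1 higher and 5 lower, beside 15.2% of all genes. Genes without an adjusted p in a comparison were also left out of the counts by unadjusted p. At an unadjusted p under 0.05, 2 were higher and 8 lower in knockdown over LacZ control, beside 14.7% of all genes in either direction. By the same measure 4 were higher and 8 lower in knockdown over non-injected embryos (29.0% of all genes), and 1 higher and 4 lower in LacZ control over non-injected embryos (7.39% of all genes). The median of those with an adjusted p was -0.14 in knockdown over LacZ control, -0.24 in knockdown over non-injected and -0.02 in LacZ control over non-injected embryos.

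Of the proteins that both exchange complexes and the INO80 complex share, 2 of 3 were called lower between knockdown and non-injected embryos, beside 7.76% of all genes. The remaining gene stood at -0.38 ± 0.20 (DESeq2, adjusted p = 0.188). Ruvbl1, an AAA ATPase of the ring at the base of these complexes, stood at -0.76 ± 0.21, and Actl6a, an actin-related protein, at -0.71 ± 0.24 in the authors' deposited table (DESeq2, adjusted p = 0.00615 and 0.0340). In the rest of the TIP60-EP400 complex 2 of 10 genes with an adjusted p were called, in opposite directions, beside 15.2% of all genes. Brd8, a bromodomain subunit, fell by 0.93 ± 0.22 and Ing3, a reader of methylated lysine 4 of histone H3, rose by 0.82 ± 0.20 in the authors' deposited table (DESeq2, adjusted p = 0.00201 and 0.00244). INO80 is a related remodeller that slides nucleosomes and has been linked to the removal of H2A.Z. Of its 12 subunits 2 were called lower, beside 7.76% of all genes. Nfrkb stood at -0.80 ± 0.26 and Ino80c at -0.76 ± 0.26 in the authors' deposited table (DESeq2, adjusted p = 0.0237 and 0.0282). With adjustment over every p-value Actl6a and Ino80c were no longer called (adjusted p = 0.0688 and 0.0570). None of these 6 was called in the other comparisons. Between the injected groups Ruvbl1, Brd8 and Ino80c stood at -0.54, -0.57 and -0.51, and Actl6a, Nfrkb and Ing3 at -0.21, -0.14 and 0.21. Between LacZ control and non-injected embryos they stood, in the same order, at -0.22, -0.36, -0.26, -0.50, -0.66 and 0.61. No difference between these comparisons was tested. Among the 6 chaperones of H2A-H2B and readers of H2A.Z, and among the 3 other H2A replacement variants, none was called in any comparison (DESeq2, 0 of 5 and 0 of 2 with an adjusted p in both knockdown comparisons). Among those with an adjusted p, at an unadjusted p under 0.05, 2 chaperones or readers were lower in knockdown over LacZ control. In knockdown over non-injected embryos 1 was lower, and 2 other variants were higher. The remaining variant, with a mean count of 3.13 and no adjusted p there, stood at 0.45 ± 0.31 (DESeq2, unadjusted p = 0.0143).

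**Figure D4:**
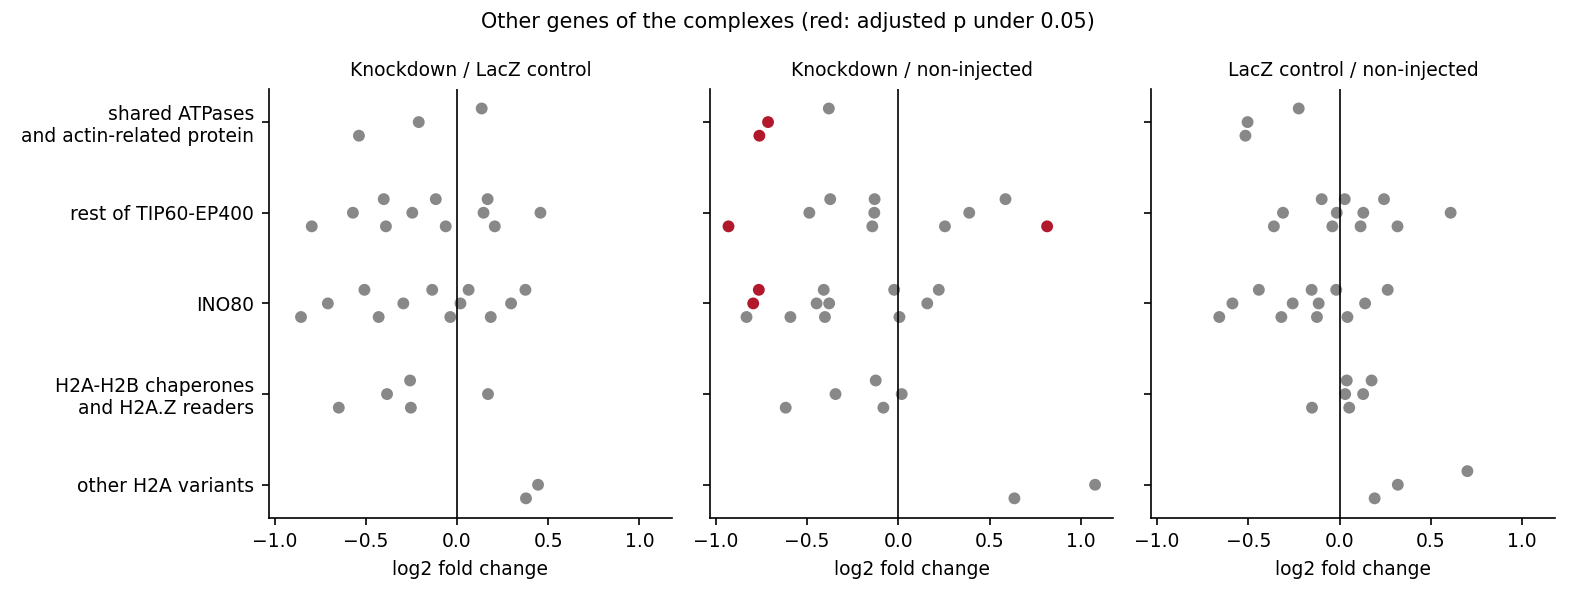
Log2 fold changes in the authors' deposited tables of the other genes of the pathway with an adjusted p, by group, in the 3 comparisons (each point 1 gene, red where the adjusted p is under 0.05, points set apart vertically for legibility). The 6 red points lie in knockdown over non-injected embryos, 5 below 0 and 1 (Ing3) above it.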

How the data were processed

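Polyadenylated RNA of 16 libraries of 2-cell embryos was measured with Smart-seq2, per the labels' protocols. STAR 2.5.2b, SAMtools, HTSeq 0.9.1 and DESeq2 1.18.1, with GRCm38.p5, are named in the submitters' processing notes. RUVSeq factors and shrinkage of fold changes are known only from the names of the deposited tables. The number of factors, the annotation and the handling of multiply mapped reads were not given in the sources used here. Multiple mapping bears on H2afz and Srcap.

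The 3 deposited gene tables give, per the file headers, the signal of each gene as its mean count over libraries after scaling by size factors. The further deposited columns are a log2 fold change and its standard error, the Wald score, the p-value and its adjusted p-value. The mean counts of the 3 tables differ by at most 4.87e-06. The 3 repeat tables were not used. The deposited tables give no value per library (0 such columns), so depth, batches and outlying libraries could not be examined, and all tests in the results are those the authors ran with DESeq2, a call being an adjusted p under 0.05; as an alternative, p was also computed here from the shrunken fold change over its standard error. Shrinkage pulls the fold changes of weakly counted genes towards 0.

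Computed here were the match to GENCODE vM21 symbols, counts per kilobase of merged exons, 95% intervals as fold change with normal limits from the deposited standard error, medians, counts of calls, exon overlaps, coding-sequence copies (BLAST 2.17.0, identity of 95% or more over 100 bases or more) and promoter matches, with Python 3.11.15 and pandas 2.3.3. The adjustment of p-values was tested on simulated data. Named genes were all 10 members, Suv39h2 and, of the other lists, genes called in any comparison, at most 4 per list. Marker genes were named outside this rule, as examples, as an end of a range or because they carried an adjusted p. The members and lists were chosen with earlier results of these data known. Gm42715, Tmcc1, Gm8203, Plod3, 1700008J07Rik and Dclre1c were named after their overlap or identity was seen.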

Additional observations from a re-analysis of the deposited data

How the results depend on the processing

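Across the 3 comparisons, the count of members called was recomputed with adjustment over every p-value, over genes with a mean count of 10 or more or 100 or more, and with p from the shrunken fold change over its standard error, and was 1, 3 and 0 in each. The 1 is Actr6, whose value in that contrast chose the set, so nothing is read from its count. Actr6 is also 1 of the 3. Znhit1 and Dmap1, with mean counts of 49.7 and 38.1, dropped out of the setting of 100 or more. At a threshold of 0.01 the count was 0 between knockdown and LacZ control, where Actr6 stood at 0.0175, and 2 between knockdown and non-injected embryos, where Anp32e stood at 0.0248. Over the 3 other adjustments of the DESeq2 p-values, the adjusted p of Anp32e in that comparison was 0.0161 at its lowest and just under the threshold with adjustment over every p-value, that of Yeats4 ranged from 0.00484 to 0.0151 and that of Actr6 from 0.000419 to 0.00117. With p computed here from the shrunken fold change over its standard error, in place of the DESeq2 p, the adjusted p was 0.0239 for Anp32e, 0.00748 for Yeats4 and 0.000373 for Actr6. Centring on genes with a mean count of 100 or more, whose medians were -0.08, -0.08 and 0.00, changed the sign of 0 of 30 member fold changes. Left without Actr6, the members had medians of -0.32, -0.34 and 0.03. Adjustment over every p-value gave 4 in place of 6 calls among the other genes. By longest transcript the levels of H2afz (6277 per kilobase), Vps72 (119) and Znhit1 (41.2) moved by more than 1.5 times. No paired analysis was possible because the deposited tables hold no value per library. Leaving out single libraries was not run for the same reason.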
